A study of Mus musculus with 12 samples.

Results

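The 41 genes described here are interferon-stimulated genes of the mouse, chosen by symbol. All 41 were present among the 24319 entries of the deposited expression table, and all 41 were among the 11991 genes that reached 1 FPKM in 3 or more of the 12 libraries and were tested. FPKM is the number of sequenced fragments scaled to transcript length and to the size of the library. The scaling lets levels be set side by side between genes, apart from near copies, and between libraries as far as library totals are alike. RNA came from CD45-positive cells of the liver, that is from immune cells, which were captured with a PE-coupled antibody to CD45 and magnetic beads. Every mouse was C57BL/6 and had received the human oncogenes c-Myc and N-ras on day 0 by hydrodynamic transfection, a rapid injection of plasmid that reaches mainly hepatocytes, and the control mice carried them as well. Combination mice were given 4 mg/kg of polyIC by intraperitoneal injection on days 14, 16, 18, 20 and 22 and a 200 µg dose of a PD-L1 antibody on days 17, 19 and 21. Mice of the polyIC group were given the same polyIC with 200 µg of IgG in place of the antibody. Mice of the antiPDL1 group were given PBS in place of polyIC and 200 µg of the antibody, and control mice were given PBS and 200 µg of IgG. Livers were taken on day 24 according to the treatment protocol, whereas the time point label of every library reads day 22. Each group had 3 libraries, numbered replicates 0, 1 and 2 by the labels, and wherever 3 values are listed for a group they are in that order. The labels do not say whether replicates came from separate mice, so the p-values measure the spread between libraries, which may be technical.

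Type I interferons are made when sensors such as TLR3 and MDA5 meet double-stranded RNA, for which polyIC is a synthetic stand-in. They bind the receptor IFNAR, whose kinases JAK1 and TYK2 phosphorylate STAT proteins such as STAT2. Together with IRF9 they form a complex that binds the interferon-stimulated response element (ISRE) in the promoters of genes such as Isg15 and Ifit1. The products of these genes restrict viruses, and several of them sense RNA or feed back on the pathway. Interferon gamma, a product of activated T cells and NK cells, acts through a receptor of its own and another promoter element, GAS, and raises a partly shared set of genes.

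The promoters of 5 members are shown because the results below turn on these genes: Isg15 and Ifit1 as members of the core response, Bst2 and Trim25 as members that were lower in combination libraries than in control, and Ms4a4c as the member with the largest difference in the other direction. Each sequence holds the 200 bases before the RefSeq start of the gene in the mouse build GRCm38.p6, written 5′ to 3′ on the strand of the gene, and capitals mark matches to the ISRE core, which is GAAA and GAAA with any pair of bases (NN) between them, or its reverse complement, TTTC and TTTC with NN between them, so that both strands were searched.
Isg15: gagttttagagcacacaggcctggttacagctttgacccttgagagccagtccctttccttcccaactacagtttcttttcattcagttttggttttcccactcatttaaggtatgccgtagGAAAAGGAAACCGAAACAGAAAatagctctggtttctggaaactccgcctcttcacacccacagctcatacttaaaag
Ifit1: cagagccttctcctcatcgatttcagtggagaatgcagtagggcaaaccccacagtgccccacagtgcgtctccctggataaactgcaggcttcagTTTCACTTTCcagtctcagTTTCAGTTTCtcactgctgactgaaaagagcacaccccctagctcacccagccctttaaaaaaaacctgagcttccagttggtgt
Bst2: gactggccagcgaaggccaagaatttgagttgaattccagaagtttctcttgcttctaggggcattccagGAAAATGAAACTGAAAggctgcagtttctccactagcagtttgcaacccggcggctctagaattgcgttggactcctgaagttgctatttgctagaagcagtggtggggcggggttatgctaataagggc
Ms4a4c: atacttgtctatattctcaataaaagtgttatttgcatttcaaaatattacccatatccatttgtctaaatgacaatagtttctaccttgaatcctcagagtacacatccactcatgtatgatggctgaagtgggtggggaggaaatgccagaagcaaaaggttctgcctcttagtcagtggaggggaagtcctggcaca
Trim25: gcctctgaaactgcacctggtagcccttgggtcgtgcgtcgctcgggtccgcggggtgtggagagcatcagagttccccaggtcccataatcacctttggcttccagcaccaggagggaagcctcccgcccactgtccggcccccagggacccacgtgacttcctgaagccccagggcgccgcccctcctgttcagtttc
Isg15 lies at chr4:156200819-156201018 on the minus strand, Ifit1 at chr19:34640689-34640888 on the plus strand, Bst2 at chr8:71537473-71537672 on the minus strand, Ms4a4c at chr19:11407461-11407660 on the plus strand and Trim25 at chr11:88999203-88999402 on the plus strand. All 5 lie upstream of the annotated start of their gene. The deposited table was made on mm9 and holds no positions, and none were converted. Isg15 had 3 matches that overlap each other, Bst2 had 2 that overlap and Ifit1 had 2 that do not. No match was found in these windows of Ms4a4c and Trim25, which says only that these letters are not there. A RefSeq window from 250 bases before to 50 bases after the start was at hand for 31 of the 41 members. The ISRE core occurred in 12 of these 31 (38.7%), against 3.99% of 27025 genes with a window. The GAS core, TTCNNNGAA, which is its own reverse complement, occurred in 7 of the 31 (22.6%), against 9.55% of those genes. Bst2, Ifitm3 and Oas1a had both.

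The table gives no read counts, and depth is known only in relative terms: relative depths estimated from steps between low values ran from 0.497 to 1. FPKM totals were 476111 to 677535 per library, and the small RNA gene Mir6236 took 4.97% to 20.6% of them. Over all genes tested, 3 libraries correlated better with another group than with their own: antiPDL1 replicate 0 with combination (0.960, own group 0.940), antiPDL1 replicate 2 with control (0.950, own group 0.927) and control replicate 2 with polyIC (0.933, own group 0.921). Counts of called members and medians over all members that rest on antiPDL1 replicate 2 or control replicate 2 are therefore also given without them. A list of 6 leukocyte genes included Ptprc, which encodes CD45. Its genes summed to 9550 to 9840 FPKM in combination libraries and 7246 to 8946 FPKM in polyIC libraries. The sums were 6548 to 10725 FPKM in antiPDL1 libraries and 6315 to 7932 FPKM in control libraries. Cell type markers differed widely between groups. The 11 T cell markers summed to 2302 to 2923 FPKM in combination libraries, 1506 to 2144 FPKM in polyIC libraries, 708 to 1987 FPKM in antiPDL1 libraries and 318 to 923 FPKM in control libraries. The 9 Kupffer cell markers summed to 69.1 to 260 FPKM in combination libraries, 677 to 1972 FPKM in polyIC libraries, 801 to 6334 FPKM in antiPDL1 libraries and 1839 to 9569 FPKM in control libraries. The 18 hepatocyte markers, which show liver RNA in the sort, summed to 469 to 702, 2203 to 3071, 793 to 2819 and 1786 to 5337 FPKM in combination, polyIC, antiPDL1 and control libraries. In bulk RNA, fewer cells of a type and less RNA per cell cannot be told apart.

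The interferon-stimulated genes were expressed in every group, the controls included, and polyIC, alone or with the antibody, did not move them together in one direction at the time the livers were taken: their median log2 difference from control was -0.01 with combination and -0.03 with polyIC. Both medians depend on control replicate 2: without it they were -0.15 with combination (25 of 41 negative) and -0.33 with polyIC (24 of 41 negative). Mean levels over the 12 libraries ran from 1201 FPKM for Ly6e, a surface protein of lymphoid and other cells, to 1.81 FPKM for Mx2. The 5 highest were Ly6e, Ifitm3, Bst2, Irf7 and Lgals3bp. The members that varied most were Isg15, whose highest library was 8.60 times its lowest, Ms4a4c (7.61 times) and Ifit3 (6.53 times). Samd9l (1.62 times), Irf9 (1.64 times) and Sp100 (1.65 times) varied least.

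**Figure D1:**
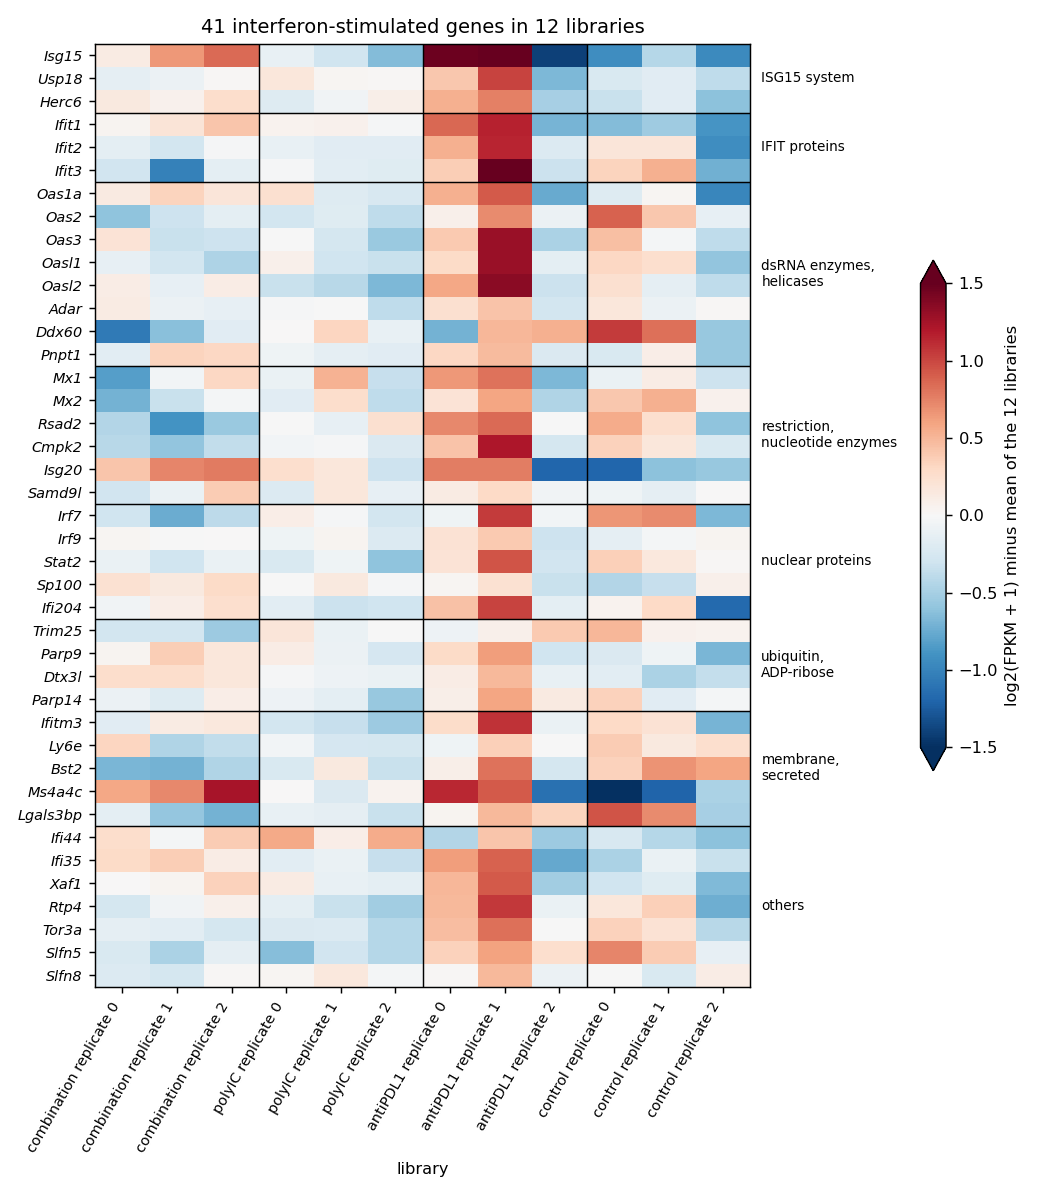
Each row is 1 of the 41 genes, grouped by role, and each column 1 library, with replicates 0, 1 and 2 of combination, polyIC, antiPDL1 and control from left to right. Colour gives log2(FPKM + 1) minus the mean of that gene over the 12 libraries, capped at 1.5 in either direction; antiPDL1 replicate 1 is the highest library for 30 of the 41 genes.

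Among libraries of the same group, the members differed most within antiPDL1. Relative to each gene's own mean, the median member stood at 0.31, 0.82 and -0.27 (log2) in antiPDL1 libraries, against 0.17, 0.06 and -0.42 in control libraries. The same median was -0.12, -0.09 and 0.02 in combination libraries and -0.05, -0.10 and -0.26 in polyIC libraries. The library antiPDL1 replicate 1 held the highest value of all 12 libraries for 30 of 41 members, and antiPDL1 replicates 0 and 1 both exceeded every control for 23. The library antiPDL1 replicate 2 was below the other 2 of its group for 35 members, within the control range for 28, below every control for 12 and above every control for 1. Among controls, replicate 2 was the lowest for 29 members. These counts by library have no share of all genes beside them, so they do not show a trait of the members alone. Over all genes tested, antiPDL1 replicate 2 and control replicate 2 also correlated better with another group than with their own. The median SD of a member between libraries of a group (log2) was 0.170 in combination, 0.146 in polyIC, 0.584 in antiPDL1 and 0.299 in control, against 0.196, 0.179, 0.294 and 0.238 for all genes tested. With either polyIC treatment, members were thus about as close between replicates as all genes tested. With the antibody alone they were further apart than all genes tested.

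**Figure D2:**
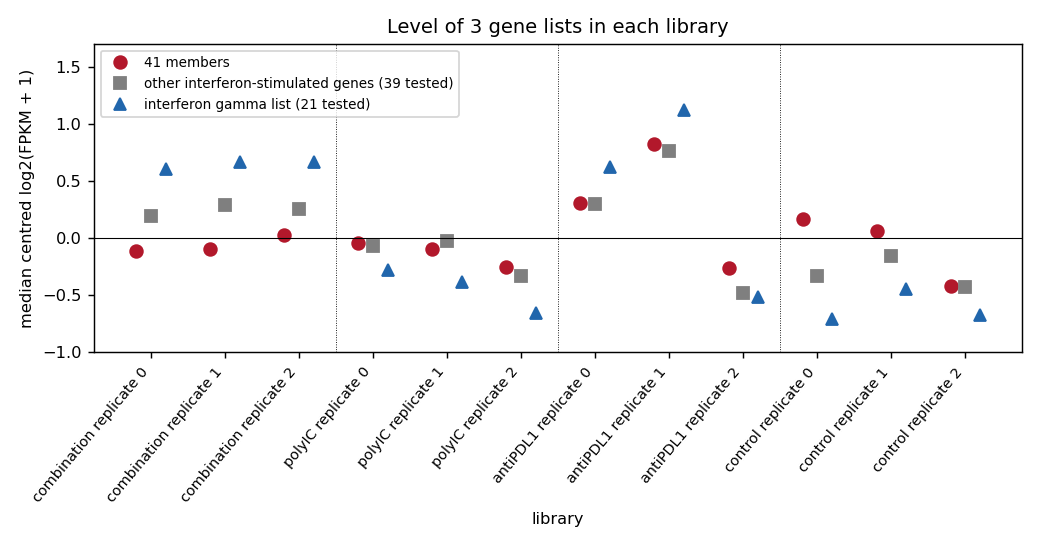
Points give, for each library, the median over a gene list of log2(FPKM + 1) centred on each gene's mean of the 12 libraries: the 41 members (circles), 39 other interferon-stimulated genes (squares) and 21 genes of the interferon gamma list (triangles). The circles span 0.02 to -0.26 in combination and polyIC libraries, the lowest being polyIC replicate 2, and 0.82 to -0.27 in antiPDL1 libraries. The triangles are at 0.60 or higher in the 3 combination libraries.

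The comparison of combination with control covers both agents given together. Of the 41 members, 3 rose, Ms4a4c, Isg20 and Dtx3l, and 2 fell, Bst2 and Trim25, in limma with Benjamini-Hochberg adjusted p under 0.05. Among all genes tested 29.4% passed in this comparison (13.1% higher and 16.3% lower), so the share of members that passed, 5 of 41, was below that of the table. The median log2 difference of the members was -0.01, against 0.05 for all genes, with 20 members positive and 21 negative. For 13 members all 3 combination libraries were above every control (25.6% of all genes), and for 7 all 3 were below (20.3% of all genes). The count of called members was 2, 2 and 1 without combination replicate 0, 1 or 2, against 24.4%, 13.9% and 18.8% of all genes. It was 2 without control replicate 0 and 2 without control replicate 1, against 14.6% and 19.0% of all genes. It was 12 (4 higher and 8 lower, median -0.15) without control replicate 2, against 34.6% of all genes. It was 14 (9 higher and 5 lower) without antiPDL1 replicate 2, which enters only through the shared estimate of the spread, against 37.6% of all genes. Without both libraries it was 19 (8 higher and 11 lower), against 43.2% of all genes.

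The comparison of antiPDL1 with control covers the antibody by itself. No member passed (limma, 0 of 41, against 0.208% of all genes), although 34 of 41 differences were positive and 5 members had an unadjusted p under 0.05, all of them higher: Ms4a4c, Ifit1, Xaf1, Herc6 and Dtx3l. Among all genes 7.61% were higher and 9.35% lower at that unadjusted p. The median difference was 0.39 on the log2 scale, against 0.01 for all genes, and only Dtx3l had all 3 antiPDL1 libraries above every control (4.61% of all genes), with 0 members below (7.89% of all genes). Without antiPDL1 replicate 2 the median was 0.72 and 13 members were called, all higher, among 17.4% of all genes (11.9% higher): Isg15, Usp18, Herc6, Ifit1, Ifit2, Oas1a, Oasl2, Isg20, Parp9, Dtx3l, Ms4a4c, Ifi35 and Xaf1. Without antiPDL1 replicate 1 the median was 0.085 and no member was called (0.00834% of all genes). Without control replicate 2 the median was 0.20, again with no member called (2.94% of all genes). Without both control replicate 2 and antiPDL1 replicate 2, the median was 0.50 and 14 members were called, the same 13 and Sp100, among 28.1% of all genes (14.4% higher). The median was positive in each of these runs, while its size and the number of calls depended on the library left out.

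The comparison of polyIC with control covers double-stranded RNA by itself. No member passed (limma, 0 of 41, against 3.64% of all genes), and at an unadjusted p under 0.05 there was 1 higher, Ifi44 (11.0% of all genes), and 3 lower, Slfn5, Bst2 and Oas2 (11.2% of all genes). The median difference was -0.03, against -0.01 for all genes, with 19 members positive and 22 negative. All 3 polyIC libraries were above every control for 7 members, Ifit1, Usp18, Isg20, Dtx3l, Ms4a4c, Ifi44 and Xaf1 (16.2% of all genes), and below every control for 5, Bst2, Ly6e, Oas2, Stat2 and Slfn5 (12.4% of all genes). Without antiPDL1 replicate 2, 4 members were called, Ifit1, Isg20 and Ms4a4c higher and Slfn5 lower, among 7.60% of all genes. Without antiPDL1 replicate 1 a single member, Ifi44, was called, higher, among 3.19% of all genes (2.27% higher). Without control replicate 2 the median was -0.33 and 3 members were called, Lgals3bp, Oas2 and Slfn5, all lower, among 15.6% of all genes (9.87% lower). With antiPDL1 replicate 2 and control replicate 2 both left out, 8 were called, 4 in each direction, among 24.1% of all genes. All 3 comparisons with control share the same control libraries.

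The combination was set against each agent alone to ask what the second agent added. Against polyIC no member passed (0 of 41, limma, against 1.23% of all genes), with 2 lower at an unadjusted p under 0.05, Rsad2 and Trim25 (9.26% of all genes), 0 higher (4.29% of all genes) and a median of 0.10. All 3 combination libraries were above every polyIC library for 9 members (13.3% of all genes), among them Isg15, Ms4a4c and Isg20, and below for 6 (16.1% of all genes), among them Bst2, Irf7 and Rsad2. With antiPDL1 replicate 2 and control replicate 2 both left out, 3 were called, Isg15 and Ms4a4c higher and Rsad2 lower, among 9.17% of all genes. Against antiPDL1 no member passed either (0 of 41, against 0.125% of all genes), while 35 of 41 differences were negative, the median was -0.34, against 0.04 for all genes, and 10 members were lower at an unadjusted p under 0.05 (8.08% of all genes) with 0 higher (6.32% of all genes). For 9 members all 3 combination libraries were below every antiPDL1 library (12.1% of all genes) and for 0 all 3 were above (8.28% of all genes). Without antiPDL1 replicate 1 this median was -0.10, and without antiPDL1 replicate 2 it was -0.65. Without control replicate 2, Rsad2 alone was called, lower, among 2.29% of all genes (1.48% lower). Without that library and antiPDL1 replicate 2 the called members were Cmpk2, Ifit2, Rsad2 and Tor3a, all lower, among 0.717% of all genes (0.509% lower). The polyIC group set directly against antiPDL1 gave 0 called members (0.242% of all genes), 39 negative differences, a median of -0.36 and, at an unadjusted p under 0.05, 7 lower (4.09% of all genes) and 1 higher (5.95% of all genes). For 9 members all 3 polyIC libraries were below every antiPDL1 library (7.10% of all genes) and for 0 all 3 were above (8.69% of all genes). Its median was -0.13 without antiPDL1 replicate 1 and -0.71 without antiPDL1 replicate 2, in which case 4 members, Ifi35, Ifit1, Isg15 and Oasl2, were called lower, among 2.86% of all genes (1.74% lower). Without antiPDL1 replicate 2 and control replicate 2 it was 18 members, all lower, among 7.78% of all genes (4.23% lower). The medians of combination against polyIC and of polyIC against antiPDL1 have no median of all genes beside them. They and the count of negative differences therefore do not show a trait of the members alone.

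The difference between the polyIC effect in mice with antibody and that in mice without was fitted as an interaction. No member passed (0 of 41, limma, against 0.0250% of all genes). The median was -0.30, with 36 of 41 negative, and Rsad2 alone had an unadjusted p under 0.05, in the lower direction (1.53% of all genes, with 0.917% higher). This median was -0.04 without antiPDL1 replicate 1, -0.10 without control replicate 2 and -0.55 without antiPDL1 replicate 2. It has no median of all genes beside it, so it does not show a trait of the members alone. A test of any difference among the 4 groups called 2 members, Bst2 (limma F test, adjusted p = 0.0466) and Slfn5 (adjusted p = 0.0361), against 13.7% of all genes, with 10 members at an unadjusted p under 0.05 (31.2% of all genes). With 1 of the 12 libraries left out at a time, Bst2 was called in 2 of 12 runs and Slfn5 in 3 of 12.

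**Figure D3:**
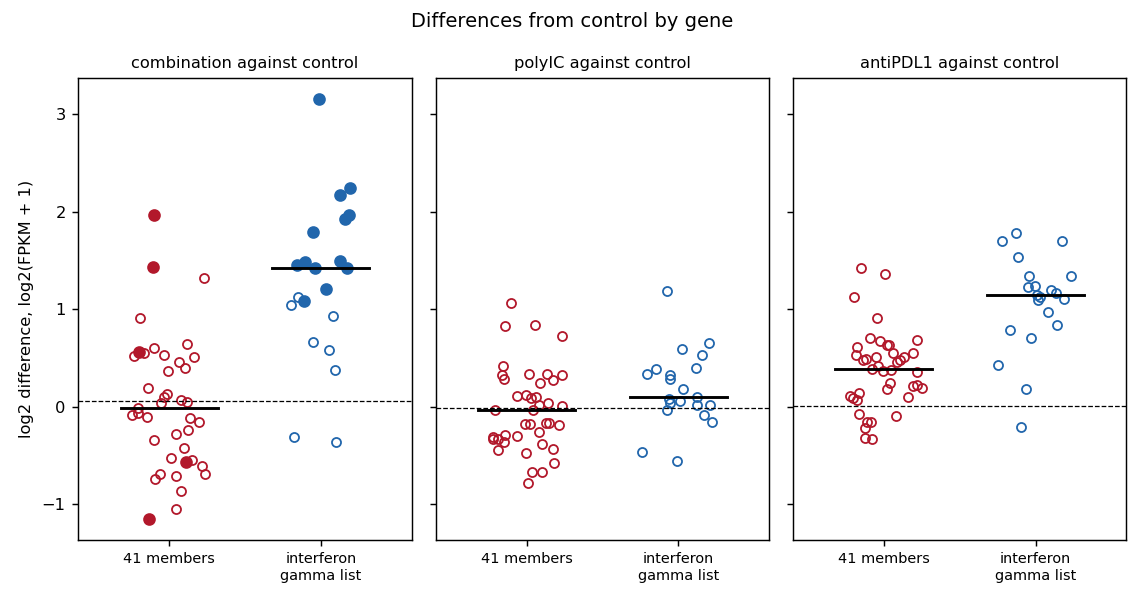
Each point is 1 gene, placed at its log2 difference from control on log2(FPKM + 1) for combination, polyIC and antiPDL1; filled points had an adjusted p under 0.05 in limma, black lines are list medians and the dashed line is the median of all genes tested. The 41 members centre on -0.01, -0.03 and 0.39, and the 21 genes of the interferon gamma list on 1.42, 0.10 and 1.14.

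Values of single members are given by role, beginning with the ISG15 system. Isg15, a ubiquitin-like protein that is joined to other proteins, stood at 129.6, 187 and 215 FPKM in combination libraries, 110.0, 96.2 and 75.3 FPKM in polyIC libraries, 329.6, 382 and 44.4 FPKM in antiPDL1 libraries and 61.8, 87.9 and 60.5 FPKM in control libraries. All 3 combination libraries were above every polyIC and control library, antiPDL1 replicates 0 and 1 were the highest of the 12 and antiPDL1 replicate 2 was the lowest. The log2 difference from control was 1.32 ± 0.63 (SE) for combination, 0.42 ± 0.63 for polyIC and 1.35 ± 0.63 for antiPDL1, and none passed (limma, adjusted p = 0.134, 0.728 and 0.303). Usp18, the protease that takes ISG15 off its targets and damps signalling at IFNAR, stood at 29.5, 30.3 and 32.8 FPKM in combination libraries, 36.6, 33.1 and 32.6 FPKM in polyIC libraries, 43.2, 66.4 and 19.8 FPKM in antiPDL1 libraries and 27.4, 28.7 and 24.7 FPKM in control libraries. Every combination and polyIC library was above every control, by a small margin, while the antiPDL1 libraries held both the highest and the lowest value. Herc6, a ligase that attaches ISG15 in the mouse, averaged 16.3 ± 1.21 FPKM in combination, 14.03 ± 1.46 FPKM in polyIC, 18.8 ± 7.85 FPKM in antiPDL1 and 11.1 ± 1.82 FPKM in control libraries (SD, n = 3 each). Its combination libraries were all above control, with a log2 difference of 0.53 ± 0.27 (SE; limma, adjusted p = 0.158).

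Among the IFIT proteins, which bind foreign RNA, Ifit1 stood at 19.95, 22.3 and 26.1 FPKM in combination libraries, 20.1, 20.2 and 19.04 FPKM in polyIC libraries, 35.9, 44.2 and 11.5 FPKM in antiPDL1 libraries and 11.9, 13.02 and 10.03 FPKM in control libraries. Combination and polyIC libraries were all above every control, and antiPDL1 replicate 2 lay within the control range while the other 2 were the highest of the 12. Its log2 difference was 0.91 ± 0.37 (SE) for combination, 0.72 ± 0.37 for polyIC and 1.13 ± 0.37 for antiPDL1, with limma adjusted p = 0.0838, 0.274 and 0.211. Ifit3 stood at 24.99, 14.8 and 27.8 FPKM in combination libraries, 30.5, 27.4 and 27.1 FPKM in polyIC libraries, 40.2, 96.4 and 24.4 FPKM in antiPDL1 libraries and 39.03, 45.02 and 18.3 FPKM in control libraries. Its groups overlapped in every comparison, and the reading shares its uncertainty with Ifit3b, a near copy, since the sources do not say how shared reads were assigned. Ifit2 averaged 33.8 ± 3.20 FPKM in combination, 33.7 ± 0.749 FPKM in polyIC, 56.8 ± 25.8 FPKM in antiPDL1 and 34.8 ± 13.6 FPKM in control libraries (SD, n = 3 each), so that its combination and polyIC means lay within the control spread.

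None of the 8 enzymes and helicases that act on double-stranded RNA passed in any pair of groups (limma). Of all genes, 0.125% to 29.4% passed, depending on the pair. With combination against control, 0 were higher and 2 lower at an unadjusted p under 0.05, against 42.6% of all genes in either direction. Oas1a, a synthetase that activates RNase L, stood at 45.5, 52.4 and 47.05 FPKM in combination libraries, 48.9, 35.97 and 34.9 FPKM in polyIC libraries, 59.999, 78.8 and 23.95 FPKM in antiPDL1 libraries and 36.05, 42.1 and 20.4 FPKM in control libraries. All combination libraries were above every control, but polyIC and antiPDL1 overlapped control, and reads shared with the other Oas1 genes of the mouse make this level uncertain. Oasl2, an OAS-like protein, stood at 46.2, 39.5 and 46.5 FPKM in combination libraries, 33.7, 31.8 and 26.5 FPKM in polyIC libraries, 64.8, 111 and 34.1 FPKM in antiPDL1 libraries and 50.7, 38.9 and 32.6 FPKM in control libraries. The 3 polyIC libraries were below every antiPDL1 library, the largest negative difference in that comparison (-1.02 ± 0.34, SE; limma, adjusted p = 0.322), and polyIC and combination both overlapped control. Ddx60, an interferon-induced helicase, stood at 3.07, 4.50 and 6.57 FPKM in combination libraries, 7.52, 9.64 and 6.90 FPKM in polyIC libraries, 4.18, 11.01 and 11.3 FPKM in antiPDL1 libraries and 16.6, 14.02 and 4.74 FPKM in control libraries. Control replicates 0 and 1 were the highest and the combination libraries among the lowest, yet control replicate 2 overlapped them, and the log2 difference of -1.05 ± 0.44 for combination against control did not pass (limma, adjusted p = 0.0898). Oas2 averaged 4.28 ± 0.831 FPKM in combination, 4.53 ± 0.387 FPKM in polyIC, 7.10 ± 2.49 FPKM in antiPDL1 and 8.12 ± 3.10 FPKM in control libraries (SD, n = 3 each), with all combination and polyIC libraries below every control (limma, adjusted p = 0.0546 and 0.171). Oas3, Oasl1, the RNA-editing deaminase Adar and the RNA exonuclease Pnpt1 had combination means of 22.5, 19.5, 22.7 and 18.8 FPKM, against control means of 25.6, 24.7, 23.8 and 14.1 FPKM. Combination and control overlapped for each of these 4 genes.

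Restriction and nucleotide enzymes held 1 member that rose. Isg20, an exonuclease that degrades RNA, stood at 34.96, 43.7 and 45.2 FPKM in combination libraries, 31.1, 29.3 and 20.7 FPKM in polyIC libraries, 44.8, 44.8 and 10.8 FPKM in antiPDL1 libraries and 10.8, 16.5 and 17.1 FPKM in control libraries. All combination and polyIC libraries were above every control, antiPDL1 replicates 0 and 1 were as high as the combination, and antiPDL1 replicate 2 was at the level of the lowest control. Isg20 averaged 41.3 ± 5.56 FPKM in combination libraries and 14.8 ± 3.49 FPKM in control libraries (SD, n = 3 each), a log2 difference of 1.44 ± 0.44 (SE; limma, adjusted p = 0.0304). The call was lost without any 1 of 5 libraries, with limma adjusted p = 0.0508, 0.0919 and 0.0842 without combination replicates 0, 1 and 2 and 0.115 and 0.0604 without control replicates 0 and 1. Rsad2 (viperin), which makes a chain-terminating nucleotide, stood at 15.5, 10.9 and 14.2 FPKM in combination libraries, 21.2, 19.5 and 25.2 FPKM in polyIC libraries, 35.7, 39.1 and 21.2 FPKM in antiPDL1 libraries and 31.7, 25.5 and 13.7 FPKM in control libraries. Combination libraries were below every polyIC and antiPDL1 library and overlapped control through control replicate 2. Its difference of -1.15 ± 0.30 (SE) for combination against antiPDL1 was the most negative of the 41 and did not pass (limma, adjusted p = 0.143); the difference from polyIC was -0.66 ± 0.30 (adjusted p = 0.364). Cmpk2, a mitochondrial nucleotide kinase, averaged 11.2 ± 0.960 FPKM in combination, 14.6 ± 1.15 FPKM in polyIC, 24.03 ± 12.6 FPKM in antiPDL1 and 17.1 ± 3.52 FPKM in control libraries (SD, n = 3 each). Mx1, a GTPase against influenza virus that is defective as a protein in C57BL/6 mice, stood at 4.16, 7.91 and 10.3 FPKM in combination libraries, 7.52, 12.1 and 6.18 FPKM in polyIC libraries, 13.3, 15.1 and 4.74 FPKM in antiPDL1 libraries and 7.56, 8.92 and 6.37 FPKM in control libraries. Its groups overlapped in each of the 6 pairs compared. Mx2 averaged 1.16 ± 0.496 FPKM in combination, 1.58 ± 0.597 FPKM in polyIC, 2.06 ± 1.04 FPKM in antiPDL1 and 2.46 ± 0.562 FPKM in control libraries (SD, n = 3 each), with all combination libraries below every control, and Samd9l, a restriction factor of poxviruses, averaged 26.3 ± 6.72 FPKM in combination, 24.96 ± 3.60 FPKM in polyIC, 28.2 ± 3.60 FPKM in antiPDL1 and 24.6 ± 1.22 FPKM in control libraries (SD, n = 3 each).

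Among the members, the transcription factors and nuclear proteins Irf7, Stat2, Irf9, Sp100 and Ifi204 did not pass in any pair of groups. Of all genes, 0.125% to 29.4% passed, depending on the pair. Transcription factors outside the members are not covered by the result for these genes. Stat3, which rose with combination, is described with the signalling genes below. Irf7, the factor that amplifies interferon production, stood at 230.4, 169 and 217 FPKM in combination libraries, 304, 280.2 and 234 FPKM in polyIC libraries, 273, 587 and 276 FPKM in antiPDL1 libraries and 449, 466 and 177 FPKM in control libraries. Combination libraries were below every polyIC and antiPDL1 library, control replicates 0 and 1 were exceeded only by antiPDL1 replicate 1, and control replicate 2 lay among the combination libraries. The log2 difference from control was -0.71 ± 0.39 (SE) for combination (limma, adjusted p = 0.181) and -0.30 ± 0.39 for polyIC (adjusted p = 0.679). Stat2, a subunit of the ISRE-binding complex, stood at 24.2, 21.1 and 24.3 FPKM in combination libraries, 22.01, 24.9 and 16.8 FPKM in polyIC libraries, 30.2, 50.9 and 21.1 FPKM in antiPDL1 libraries and 33.6, 29.3 and 26.5 FPKM in control libraries. All combination and polyIC libraries were below every control, by small margins, and antiPDL1 replicate 1 was the highest. Irf9, the subunit that contacts DNA, was nearly level at 59.003 ± 0.548 FPKM in combination, 55.8 ± 4.81 FPKM in polyIC, 64.3 ± 15.5 FPKM in antiPDL1 and 57.1 ± 3.68 FPKM in control libraries (SD, n = 3 each). Sp100, a nuclear body protein, averaged 144 ± 6.57 FPKM in combination libraries, all above every control, and 106 ± 20.97 FPKM in control libraries (limma, adjusted p = 0.0807). Ifi204, of a family of DNA-binding proteins with near-identical copies, averaged 99.7 FPKM in combination and 84.1 FPKM in control libraries, with control replicate 2 the lowest of the 12.

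Ubiquitin and ADP-ribose enzymes gave 1 call in each direction. Dtx3l, a ubiquitin ligase that works with PARP9, stood at 48.3, 48.4 and 45.3 FPKM in combination libraries, 39.8, 38.1 and 37.4 FPKM in polyIC libraries, 43.3, 56.7 and 37.2 FPKM in antiPDL1 libraries and 35.8, 28.6 and 31.2 FPKM in control libraries. Every library of the 3 treated groups was above every control, and the 3 combination libraries lay within a narrow range. The log2 difference was 0.56 ± 0.16 (SE) for combination (limma, adjusted p = 0.0249), 0.27 ± 0.16 for polyIC (adjusted p = 0.351) and 0.49 ± 0.16 for antiPDL1 (adjusted p = 0.213). The call for combination was lost without combination replicate 0, 1 or 2 (limma, adjusted p = 0.0582, 0.0841 and 0.0525) and without control replicate 1 (0.0835). Parp9, its partner, which starts beside it in the genome, averaged 49.3 ± 5.74 FPKM in combination, 40.6 ± 5.15 FPKM in polyIC, 51.1 ± 16.2 FPKM in antiPDL1 and 34.6 ± 7.54 FPKM in control libraries (SD, n = 3 each), with all combination libraries above every control. Trim25, a ligase that acts on the RNA sensor RIG-I, stood at 23.6, 23.6 and 19.4 FPKM in combination libraries, 32.9, 26.8 and 28.7 FPKM in polyIC libraries, 27.1, 30.3 and 37.97 FPKM in antiPDL1 libraries and 41.05, 30.1 and 29.9 FPKM in control libraries. The 3 combination libraries were the lowest of the 12. The log2 difference from control was -0.57 ± 0.18 (SE; limma, adjusted p = 0.0329), and it was lost without combination replicate 0, 1 or 2 (adjusted p = 0.0517, 0.0743 and 0.106), without control replicate 0 (0.144) or control replicate 1 (0.0510) and in a fit of only the groups compared (0.0543). Parp14 averaged 32.7 ± 3.52 FPKM in combination, 28.5 ± 5.24 FPKM in polyIC, 41.8 ± 8.71 FPKM in antiPDL1 and 35.8 ± 6.97 FPKM in control libraries (SD, n = 3 each).

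Membrane and secreted proteins held the largest difference in each direction. Ms4a4c, a membrane protein of the MS4A family, stood at 274, 302 and 432 FPKM in combination libraries, 183, 157 and 189 FPKM in polyIC libraries, 402, 344 and 83.6 FPKM in antiPDL1 libraries and 56.8, 78.4 and 131 FPKM in control libraries. All combination and polyIC libraries were above every control, the combination was above polyIC in all 3 libraries, and antiPDL1 replicate 2 was in the control range. Ms4a4c averaged 336 ± 84.6 FPKM in combination libraries and 88.8 ± 38.3 FPKM in control libraries (SD, n = 3 each), 3.78 times as high, with a log2 difference of 1.96 ± 0.51 (SE; limma, adjusted p = 0.0159). The differences for polyIC, 1.06 ± 0.51, and antiPDL1, 1.43 ± 0.51, were also the largest of the 41 in those comparisons but did not pass (adjusted p = 0.243 and 0.230). Without combination replicate 2 and without control replicate 0, the combination call was lost (limma, adjusted p = 0.0580 and 0.0680). The 11 monocyte markers summed to 4416 to 6784 FPKM in combination libraries, 3335 to 3923 FPKM in polyIC libraries, 2219 to 7898 FPKM in antiPDL1 libraries and 1897 to 2703 FPKM in control libraries, and their part in the result was not tested. Other MS4A genes are close in sequence, so the level is uncertain.

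Bst2, also called tetherin, holds budding virus at the cell surface and marks plasmacytoid dendritic cells in unstimulated mice. It stood at 235, 232 and 276 FPKM in combination libraries, 322, 419 and 299 FPKM in polyIC libraries, 401, 668 and 314 FPKM in antiPDL1 libraries and 479, 606 and 569.9 FPKM in control libraries. The combination libraries were the 3 lowest of the 12, the polyIC libraries were below every control, and antiPDL1 replicate 1 was the highest. Bst2 averaged 247 ± 24.5 FPKM in combination libraries and 552 ± 65.2 FPKM in control libraries (SD, n = 3 each), 0.449 times the control level, with a log2 difference of -1.15 ± 0.26 (SE; limma, adjusted p = 0.00941). It was the only one of the 5 called members that stayed called in all 12 runs with 1 library left out (limma, adjusted p = 0.00303 to 0.0419). The difference was -0.68 ± 0.26 for polyIC (adjusted p = 0.162) and -0.32 ± 0.26 for antiPDL1 (adjusted p = 0.519). The other 9 plasmacytoid dendritic cell markers summed to 129 to 324 FPKM in combination libraries, 336 to 556 FPKM in polyIC libraries, 261 to 501 FPKM in antiPDL1 libraries and 596 to 1537 FPKM in control libraries, and 7 of the 9 fell in combination against control (16.3% of all genes), among them the lectin gene Siglech, at 19.4, 16.4 and 62.4 FPKM in combination libraries, 49.05, 115 and 77.5 FPKM in polyIC libraries, 25.6, 43.998 and 95.9 FPKM in antiPDL1 libraries and 117, 107 and 246 FPKM in control libraries. None of the 9 was at 0 in all libraries, and their part in the Bst2 result was not tested.

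Ly6e, a surface protein anchored by lipid, stood at 1469.9, 860.4 and 912 FPKM in combination libraries, 1146, 987 and 986 FPKM in polyIC libraries, 1128, 1512 and 1176 FPKM in antiPDL1 libraries and 1530.4, 1303 and 1406 FPKM in control libraries. Its polyIC libraries were below every control, and combination replicate 0 lay among the controls while combination replicates 1 and 2 were the lowest of the 12. Ifitm3, which blocks virus entry at membranes, stood at 733, 900.2 and 923 FPKM in combination libraries, 681, 649 and 566 FPKM in polyIC libraries, 999.9, 1761 and 771 FPKM in antiPDL1 libraries and 1019, 962 and 509 FPKM in control libraries. All combination libraries were above every polyIC library, all polyIC libraries were below every antiPDL1 library, and control replicate 2 was the lowest of the 12. Neither gene passed in any comparison, the lowest limma adjusted p with control being 0.192 for Ly6e and 0.453 for Ifitm3. Lgals3bp, a secreted galectin-binding protein, averaged 189 ± 39.8 FPKM in combination, 229 ± 18.9 FPKM in polyIC, 321 ± 48.5 FPKM in antiPDL1 and 371 ± 167 FPKM in control libraries (SD, n = 3 each).

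**Figure D4:**
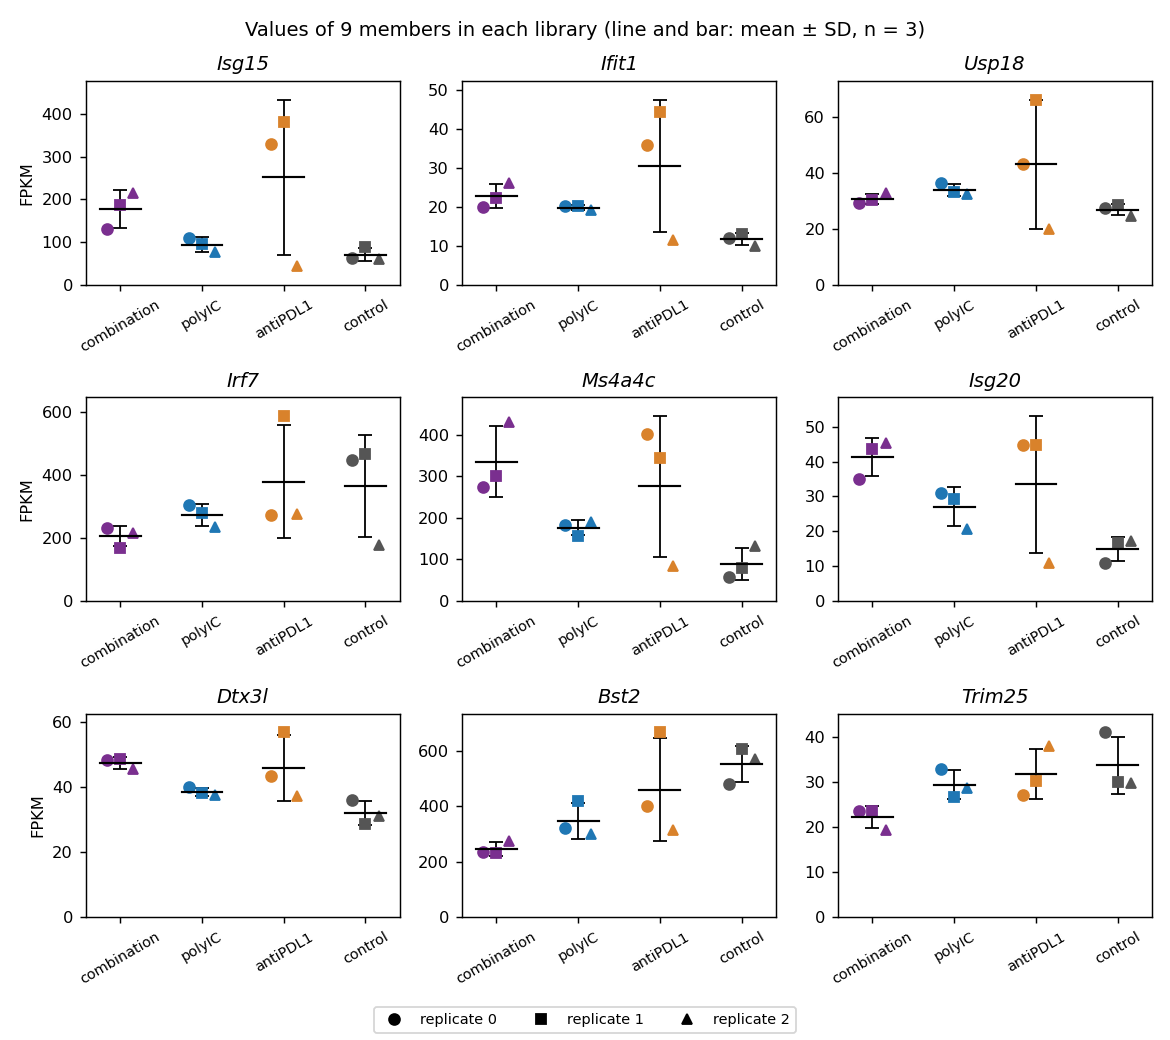
FPKM of 9 members in each library (points, replicates 0, 1 and 2), with the mean and SD of each group as a line and bar, for combination, polyIC, antiPDL1 and control from left to right. Bst2 and Trim25 have their 3 combination libraries below every control, Ms4a4c, Isg20 and Dtx3l have them above, and antiPDL1 replicate 2 lies far from antiPDL1 replicates 0 and 1 for Isg15, Ifit1 and Isg20.

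Of the remaining members, Slfn5, a Schlafen protein that limits cell growth and virus transcription, stood at 33.1, 27.8 and 35.6 FPKM in combination libraries, 24.8, 31.8 and 28.7 FPKM in polyIC libraries, 49.8, 59.9 and 46.7 FPKM in antiPDL1 libraries and 65.3, 51.2 and 35.8 FPKM in control libraries. All combination and polyIC libraries were below every control and every antiPDL1 library, although control replicate 2 came close to them. Its log2 difference from control was -0.61 ± 0.21 (SE) for combination (limma, adjusted p = 0.0501) and -0.78 ± 0.21 for polyIC (adjusted p = 0.0670), the most negative of the 41 with polyIC. Ifi44, a cytoplasmic protein induced early by interferon, stood at 22.2, 17.9 and 24.2 FPKM in combination libraries, 27.6, 19.7 and 27.4 FPKM in polyIC libraries, 13.2, 24.6 and 12.2 FPKM in antiPDL1 libraries and 15.3, 13.3 and 11.6 FPKM in control libraries. All combination and polyIC libraries were above every control, and antiPDL1 overlapped control. The log2 difference was 0.64 ± 0.25 (SE) for combination (limma, adjusted p = 0.0735) and 0.84 ± 0.25 for polyIC (adjusted p = 0.0841). Ifi35 and Xaf1 each had all combination libraries above every control, with combination means of 75.5 and 20.4 FPKM and control means of 51.3 and 14.1 FPKM. Rtp4, Tor3a and Slfn8 averaged 79.9, 33.2 and 21.1 FPKM in combination libraries and 84.3, 40.3 and 22.9 FPKM in control libraries, with overlapping values. Slfn8 shares much of its sequence with Slfn9, so its level is uncertain.

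Medians of the log2 difference from control were also taken by role. The 3 genes of the ISG15 system had a median of 0.53 with combination, 0.33 with polyIC and 0.63 with antiPDL1. The 5 membrane and secreted proteins had medians of -0.43, -0.44 and -0.10, and the 6 restriction and nucleotide enzymes -0.32, -0.01 and 0.36, in the same order of comparisons. The 8 enzymes and helicases of double-stranded RNA had medians of -0.11, -0.23 and 0.40, and the 3 IFIT genes 0.04, 0.04 and 0.68. The 3 comparisons share the control libraries, and the antiPDL1 medians carry the spread within that group described above. Medians by role are given with all 12 libraries only. Relative to its own mean, Ifit1 stood at -0.65, -0.54 and -0.88 (log2) in control libraries. On the same scale Ifit2 stood at 0.19, 0.18 and -0.93, and Ifit3 at 0.33, 0.53 and -0.72. The low control replicate 2 thus raises the IFIT medians of all 3 comparisons, and they do not show that these genes were level.

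Other genes of the pathway were read from lists chosen by function, with earlier results of these data known. The ligands themselves were scarcely seen: of 18 genes for type I interferons, 14 were listed at 0 in every library, and the highest value of the other 4 was 0.17 FPKM, for Ifnb1, which encodes interferon beta, in polyIC replicate 0. None of the 18 passed the filter on low values. Among receptor and signalling genes, Stat3, a STAT protein that also serves other cytokines, rose with combination against control (0.72 ± 0.21, log2 difference and SE; limma, adjusted p = 0.0265), and Ifnar2 fell. Ifnar2, a subunit of the type I receptor, stood at 97.7, 78.2 and 78.4 FPKM in combination libraries, 119.8, 115 and 102 FPKM in polyIC libraries, 87.5, 126 and 124 FPKM in antiPDL1 libraries and 158, 174 and 112 FPKM in control libraries. All combination libraries were below every control (-0.78 ± 0.21, SE; limma, adjusted p = 0.0177). The Stat3 call was lost without combination replicate 0, combination replicate 1, control replicate 0 or control replicate 1 (highest limma adjusted p = 0.0957), and the Ifnar2 call without combination replicate 1, combination replicate 2, control replicate 0 or control replicate 1 (highest 0.0715). Of 14 sensors and adaptors 3 rose with combination, against 13.1% of all genes called higher: the nucleic acid sensor gene Zbp1 (1.69 ± 0.51, log2 difference and SE), the adaptor gene Myd88 (1.08 ± 0.29) and Tmem173 (0.77 ± 0.22), which encodes STING, with limma adjusted p = 0.0303, 0.0186 and 0.0225. Of 6 feedback genes 2 rose, against the same 13.1%: Socs3 (1.98 ± 0.45, log2 difference and SE), which inhibits cytokine receptors, and the phosphatase gene Ptpn11 (0.63 ± 0.20), with limma adjusted p = 0.00929 and 0.0376. With 1 library left out at a time, the sensor list gave 0 to 3 higher and 0 to 2 lower, and the feedback list 1 to 4 higher. Of all genes, 5.17% to 19.9% were called higher and 8.71% to 20.7% lower in these runs. The sensor list gave 0 higher and 0 lower without combination replicate 1 or control replicate 0, and the feedback list gave 4 higher without antiPDL1 replicate 2. No sensor or feedback gene passed with polyIC or with antiPDL1 against control, against 3.64% and 0.208% of all genes. Without antiPDL1 replicate 2, 4 of 14 sensors and 3 of 6 feedback genes were called higher with antiPDL1, against 11.9% of all genes.

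The interferon gamma list holds Ifng, the receptor genes Ifngr1 and Ifngr2 and genes known to answer mainly to interferon gamma. Its median difference from control with combination was larger than that of the 41 members. Because type I interferon raises a partly shared set of genes, the list does not tell its action from that of interferon gamma. Of 21 tested genes of that list (22 listed), 13 rose and 0 fell with combination against control, with a median log2 difference of 1.42, against 0.05 for all genes and 13.1% of all genes called higher. The count of rises was 5 without control replicate 0, 7 without combination replicate 1 and 17 without antiPDL1 replicate 2, against 5.80%, 5.17% and 19.9% of all genes called higher. Ifng, the gene of interferon gamma itself, stood at 82.6, 151 and 135 FPKM in combination libraries, 35.2, 34.8 and 21.6 FPKM in polyIC libraries, 37.8, 37.2 and 19.1 FPKM in antiPDL1 libraries and 8.52, 13.6 and 16.8 FPKM in control libraries. Its combination libraries were the 3 highest of the 12, above every polyIC and antiPDL1 library, which in turn were above every control. The log2 difference was 3.15 ± 0.34 (SE) against control (limma, adjusted p = 0.000771) and 1.96 ± 0.34 against polyIC (adjusted p = 0.0375). The call against polyIC held in 5 of 12 runs with 1 library left out: it was lost without any 1 of the combination or polyIC libraries and without control replicate 1 (highest limma adjusted p = 0.177). Gbp2, a GTPase that attacks intracellular pathogens, stood at 357, 411 and 317 FPKM in combination libraries, 118, 91.9 and 77.9 FPKM in polyIC libraries, 421, 488 and 85.7 FPKM in antiPDL1 libraries and 66.6, 103 and 61.6 FPKM in control libraries. It was high in all combination libraries and in antiPDL1 replicates 0 and 1, and near control elsewhere (2.25 ± 0.52, SE, for combination; limma, adjusted p = 0.0104). Cxcl9, a chemokine that draws T cells, rose by 2.17 ± 0.52 (SE) on the log2 scale (limma, adjusted p = 0.0115). With polyIC no gene of the list was called, against 3.64% of all genes, and the median was 0.10. At an unadjusted p under 0.05, 1 was higher and 1 lower, against 11.0% and 11.2% of all genes. Without control replicate 2, and likewise without antiPDL1 replicate 2, 1 gene was called higher and 1 lower, against 15.6% and 7.60% of all genes. With antiPDL1 no gene was called, against 0.208% of all genes, and the median was 1.14. At an unadjusted p under 0.05, 16 were higher, against 7.61% of all genes. Without antiPDL1 replicate 2 the median was 1.59 and 19 genes were called higher, against 11.9% of all genes. Beside these values, the cytotoxic lymphocyte markers summed to 13145 to 16922 FPKM in combination libraries, 10540 to 13643 FPKM in polyIC libraries, 2359 to 8421 FPKM in antiPDL1 libraries and 899 to 2311 FPKM in control libraries, and their part in the result was not tested.

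A further list of 39 tested interferon-stimulated genes outside the 41 gave 11 higher and 1 lower with combination against control, against 13.1% and 16.3% of all genes, with a median of 0.47. Its largest rises were Slfn1 (1.62 ± 0.43, SE), Tap1 (1.26 ± 0.37), part of the transporter that supplies peptides for MHC class I, and Gbp7 (1.17 ± 0.30), with limma adjusted p = 0.0180, 0.0272 and 0.0163. Helz2, a nuclear helicase, fell by 1.00 on the log2 scale (limma, adjusted p = 0.0239). The rises in that list were 0 without combination replicate 1, 1 without combination replicate 2 or control replicate 0, 5 without combination replicate 0 or control replicate 1, 15 without antiPDL1 replicate 1 and 19 without antiPDL1 replicate 2. The shares of all genes called higher in these runs were, in that order, 5.17%, 8.65%, 5.80%, 10.0%, 7.99%, 12.8% and 19.9%. Several of these genes, Tap1 and Gbp7 among them, are also known to respond to interferon gamma. No gene of that list was called with polyIC or with antiPDL1, against 3.64% and 0.208% of all genes. With polyIC the median was 0.25, with 3 higher and 2 lower at an unadjusted p under 0.05 (11.0% and 11.2% of all genes). The median with antiPDL1 was 0.48, with 12 higher and 0 lower at that unadjusted p (7.61% and 9.35% of all genes). Without antiPDL1 replicate 2, 22 were called higher with antiPDL1, against 11.9% of all genes. With polyIC, 1 was called higher and 1 lower without control replicate 2, against 5.72% and 9.87% of all genes. Without antiPDL1 replicate 2 it was 2 higher, against 5.20% of all genes.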

How the data were processed

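Bulk RNA of CD45-positive liver cells was sequenced in 12 libraries, 3 in each of 4 groups taken from the labels, with a stranded mRNA kit per the labels' protocols. The authors deposited 1 table of gene-level values, read here as FPKM from their size and the tool: per the submitters' processing notes, Cuffdiff and the build mm9 were used; for their versions, the aligner and the annotation, the sources used here give nothing. FPKM scales each library by its total, so a few abundant transcripts can shift all other values. How Cuffdiff split reads between near copies or overlapping genes is not stated.

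Of 24319 entries, 9 with failed estimates were left out, and 11991 genes with at least 1 FPKM in 3 or more libraries were fitted as log2(FPKM + 1) in limma 3.58.1 (R 4.3.3; trended variance, 1 fit with group as the sole factor). P-values are two-sided, adjusted by Benjamini-Hochberg over all 11991 genes, with a threshold of 0.05; differences are on the log2(FPKM + 1) scale, which understates changes of low genes. The fit was tested on simulated data. Tables and figures were made in Python 3.11.15 with pandas 2.3.3 and numpy 2.4.6.

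Members and gene lists were chosen with earlier results of these data known. Values in every library are given for a panel of 13 members, for every member that passed in any comparison and for the members with the largest and smallest difference in each comparison; of the other lists, up to 3 passing genes are named. Promoters are RefSeq sequences of GRCm38.p6. Alternatives covered another pseudocount, filter, scaling and set of groups, array quality weights, the replicate number as a block and each library left out. A gene of the signalling list is not reported here.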

Additional observations from a re-analysis of the deposited data

How the results depend on the processing

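Of the 48 single-gene results, recomputed under up to 22 alternatives, 871 of 1055 values kept their side of the threshold, 156 lost it, 28 gained it and 0 reversed. Of 153 median differences, 150 moved by less than the spread of library medians (SD 0.32, log2). That spread is close in size to the larger of these medians, so the count cannot show that they were stable. The fall of the antiPDL1 median against control to 0.085 without antiPDL1 replicate 1 lies within it. With each library left out in turn, the number of called members ran from 1 to 14 for combination against control, 0 to 13 for antiPDL1 against control, 0 to 4 for polyIC against control, 0 to 0 for combination against polyIC, 0 to 1 for combination against antiPDL1, 0 to 4 for polyIC against antiPDL1 and 0 to 16 for any difference, and the interaction gave 0 throughout. The shares of all genes called in these runs were 13.9% to 37.6%, 0.00834% to 17.4% and 0.367% to 15.6% for the 3 comparisons with control. For the next 4, in the order given, they were 0.0167% to 4.40%, 0% to 2.75%, 0.0751% to 2.86% and 2.58% to 27.9%. The median difference ran from 0.085 to 0.72 for antiPDL1 against control and from -0.71 to -0.13 for polyIC against antiPDL1, the extremes being without antiPDL1 replicate 1 and antiPDL1 replicate 2. Leaving out control replicate 2 and antiPDL1 replicate 2 together was chosen after seeing the data. It gave 19 called members for combination against control, 14 for antiPDL1, 8 for polyIC, 3 for combination against polyIC, 4 for combination against antiPDL1, 18 for polyIC against antiPDL1 (median -0.71) and 30 for any difference (38.1% of all genes). Array quality weights, lowest for antiPDL1 replicate 2 (0.209) and control replicate 2 (0.264), gave 22, 10, 10, 13, 11, 9 and 33 in the same order of comparisons, while 57.4%, 21.6%, 28.7%, 30.5%, 6.82%, 5.64% and 55.2% of all genes were called. Fits of only the groups compared gave 8 for combination and 1 for polyIC against control and 3 for combination against polyIC. In those fits 26.6%, 3.87% and 11.2% of all genes were called. Median-of-ratios rescaling gave 8 (33.4% of all genes) and quantile normalization 7 (30.4% of all genes) for combination against control. Quantile normalization gave 1 for polyIC against control (6.53% of all genes). Without a filter, or with a mean of at least 5 FPKM, 1 member was called for any difference, against 8.06% and 9.01% of all genes. The cause of these changes was not tested. Deviations of same-numbered libraries from their group means correlated at -0.284 to 0.310 (median 0.0258), with 4 of 18 pairs over 0.1. Those of different numbers correlated at -0.303 to 0.372 (median -0.0104), with 3 of 36 pairs over 0.1. Whether equal numbers share a mouse, batch or day is not in the labels and was not tested. The replicate block gave 5 called members for combination against control (32.7% of all genes) and 1 for any difference (11.5% of all genes). Depth per library is unknown in reads, so no limit can be given for a gene listed at 0.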
